A study of Homo sapiens with 6 samples.

Results

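The mevalonate pathway was followed through 8 genes, ACAT2, HMGCS1, MVK, PMVK, MVD, IDI1, FDPS and GGPS1, which encode enzymes on the way from acetyl-CoA to farnesyl and geranylgeranyl diphosphate. They were chosen by name for their place in the pathway, with earlier results of these data known. They are 8 of the 31762 genes in the deposited count table, with 1 row each. RNA of H460, a line of human lung large cell carcinoma cells, was sequenced in 3 libraries of control cells and 3 libraries of cells exposed to fluoxetine at 20 µM for 24 h. The treatment began after 24 h of growth, and all cells were wild type and grown in RPMI-1640 with serum, which contains lipoproteins. Fluoxetine is an antidepressant that inhibits the reuptake of serotonin, and the study asked how the transcriptome of the cells changed with it. H460 is a single cell line, and the labels do not say whether the 3 libraries of a group came from separate cultures, so the p-values below measure the spread between libraries, which may be technical.

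The mevalonate pathway builds isoprenoids, the branched units from which cells make cholesterol, dolichol, ubiquinone and the lipid anchors of small GTPases. Its genes are known as targets of SREBP2, a transcription factor held in the endoplasmic reticulum membrane and released when the sterol content of that membrane falls. NF-Y, a factor that binds the sequence CCAAT, is known to act beside SREBP2 at several of these promoters.

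Libraries held 16157507 to 27823667 counts, and every fluoxetine library was shallower than every control library. At these depths 3 counts were worth 0.108 to 0.186 CPM (counts scaled to library size), far below every value of the 8 genes. The keratins KRT8, KRT18 and KRT19 of epithelial cells had 4703 or more counts in every library, but EPCAM, another epithelial marker, had only 4 to 11. KRT18 was lower with fluoxetine (log2 fold change -0.72, adjusted p = 0.00162 by edgeR), and KRT8 and KRT19 were not called. PTPRC of leukocytes, PECAM1 of endothelium and ALB of hepatocytes had 0 to 2 counts, and COL1A1 of fibroblasts had 59 to 118. Replicate 3 differed from the mean of replicates 1 and 2 by base composition in both groups. Pairs of libraries were also compared by chi-square per degree of freedom over counts. Control replicates 1 and 2 differed least (6.10), and replicate 3 differed more from each (24.2 and 13.7). Fluoxetine replicates 1 and 3 differed least (3.72), and replicate 2 differed more from each (7.34 and 11.9). A fluoxetine deviation from the mean of replicates 1 and 2 need thus not be particular to replicate 3. Among the 3900 genes with the highest GC content of the transcript, the median level in replicate 3 differed from the mean of replicates 1 and 2 by -0.27 on the log2 scale among control libraries and by -0.15 among fluoxetine libraries. The values of replicate 3 are therefore given beside each gene. The log2 fold change of fluoxetine over control also differed with GC content. Its median was 0.11 among the 3900 genes with the lowest GC content and -0.05 among the 3900 with the highest.

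Upstream sequences are shown first, because the members fell into genes with and without CCAAT in this stretch. RefSeq promoter windows of GRCh38.p14 were found for 7 of the 8 genes, all but ACAT2, and the window nearest the gene's start in the count table was searched over the 250 bases before the RefSeq start. The printed stretches are the parts of those windows outside every exon of GENCODE release 29, written 5′ to 3′ in the direction of the gene, with each complete CCAAT, or ATTGG where it lies on the other strand, in capitals. They lie at chr5:43313513-43313662 on the minus strand (HMGCS1), chr16:88663162-88663297 minus (MVD), chr10:1049171-1049369 minus (IDI1), chr1:155308616-155308747 plus (FDPS) and chr1:235326969-235327159 plus (GGPS1). The MVK and PMVK windows lie wholly inside annotated exons and are not printed. Their RefSeq starts lie 539 (MVK) and 272 (PMVK) bases inside the gene as placed in the count table. Both windows thus follow the gene's start in that table, and the bases before it were not searched.
HMGCS1: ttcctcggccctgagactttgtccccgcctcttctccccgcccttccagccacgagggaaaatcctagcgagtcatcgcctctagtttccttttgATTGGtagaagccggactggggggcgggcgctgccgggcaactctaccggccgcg
MVD: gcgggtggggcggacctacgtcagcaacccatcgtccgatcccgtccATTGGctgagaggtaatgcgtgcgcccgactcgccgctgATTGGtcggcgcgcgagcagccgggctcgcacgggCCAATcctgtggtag
IDI1: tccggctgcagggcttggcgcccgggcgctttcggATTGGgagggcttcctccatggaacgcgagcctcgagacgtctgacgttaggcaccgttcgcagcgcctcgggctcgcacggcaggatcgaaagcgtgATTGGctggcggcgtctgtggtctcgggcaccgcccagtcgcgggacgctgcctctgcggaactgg
FDPS: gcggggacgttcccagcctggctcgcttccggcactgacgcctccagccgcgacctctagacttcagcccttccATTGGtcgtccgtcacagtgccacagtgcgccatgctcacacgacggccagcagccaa
GGPS1: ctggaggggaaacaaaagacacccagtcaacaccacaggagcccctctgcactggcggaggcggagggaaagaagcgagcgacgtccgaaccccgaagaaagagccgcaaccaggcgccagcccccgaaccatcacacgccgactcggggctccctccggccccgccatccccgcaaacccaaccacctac

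Over the whole 250 bases, CCAAT was found on either strand 2 times for HMGCS1, 5 times for MVK, 3 times for MVD, 2 times for IDI1 and 3 times for FDPS, and not for PMVK or GGPS1. Counting the base before the start as -1, the matches began at -155 and -100 for HMGCS1, at -159, -120 and -85 for MVD and at -215 and -117 for IDI1. Those of FDPS began at -176, -122 and -51, and those of MVK at -210, -157, -94, -79 and -46. Thus 5 of 7 windows held CCAAT at least 2 times, against 12.6% of the nearest windows of 10194 tested genes and 9.53% of all 35116 windows, and at least 1 match was found in 34.8% and 32.0% of those. Of the gene lists read below, the sterol branch held it at least 2 times in 3 of 10 windows. Acetyl-CoA supply did in 3 of 7, and SREBP activation and feedback in 0 of 7. For paralogs and side enzymes it was 1 of 4, and for prenyl transfer and processing 1 of 12. For the dolichol, ubiquinone, vitamin K2 and tRNA branches it was 2 of 9, and for prenylated proteins 2 of 15. At least 1 match was found in 5 of the 7 windows of the members, 7 of 10 of the sterol branch and 5 of 7 of acetyl-CoA supply. It was in 2 of 7 for SREBP activation and feedback, 1 of 4 for paralogs and side enzymes and 2 of 12 for prenyl transfer and processing. For the dolichol, ubiquinone, vitamin K2 and tRNA branches it was in 4 of 9, and for prenylated proteins in 5 of 15. The letters CACNCCAC, a core of sterol regulatory elements, were in 0 of the 7 member windows, against 4.45% of the nearest windows of tested genes and 4.87% of all windows. No other spelling of such elements was searched, so their absence cannot be read from this. The GC box GGGCGG was in 6 of 7, all but GGPS1, against 67.2% and 42.6%. Both strands were searched for each motif, and in these 7 windows no match of 1 motif overlapped a match of another. GGPS1 has 3 RefSeq windows, and 1 of the others held CCAAT once, at -240, and GGGCGG at -65 and -45. The remaining GGPS1 window held GGGCGG at -184 and -49. IDI1 also has 3 RefSeq windows, and another of them held CACNCCAC once, at -115. A match describes letters only, and no binding was measured.

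Fluoxetine treatment upregulated 7 of the 8 genes at an adjusted p-value under 0.05 (edgeR, quasi-likelihood F test, adjusted by Benjamini-Hochberg over 15646 tested genes), and 6 of them at least 2-fold. Among all tested genes 7.76% were called higher, 13.1% were called in either direction and 1.25% were called higher at least 2-fold. The 8 genes had a median log2 fold change of 1.35, a 2.54-fold rise, beside 0.03 over all tested genes. For the same 7 genes every fluoxetine library lay above every control library, a separation seen for 17.5% of tested genes. With 3 libraries against 3, the smallest two-sided p of an exact permutation test was 0.1, and each of the 7 genes reached it. In bulk RNA, a change in the share of cells of a kind and a change in RNA per cell cannot be told apart.

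**Figure D1:**
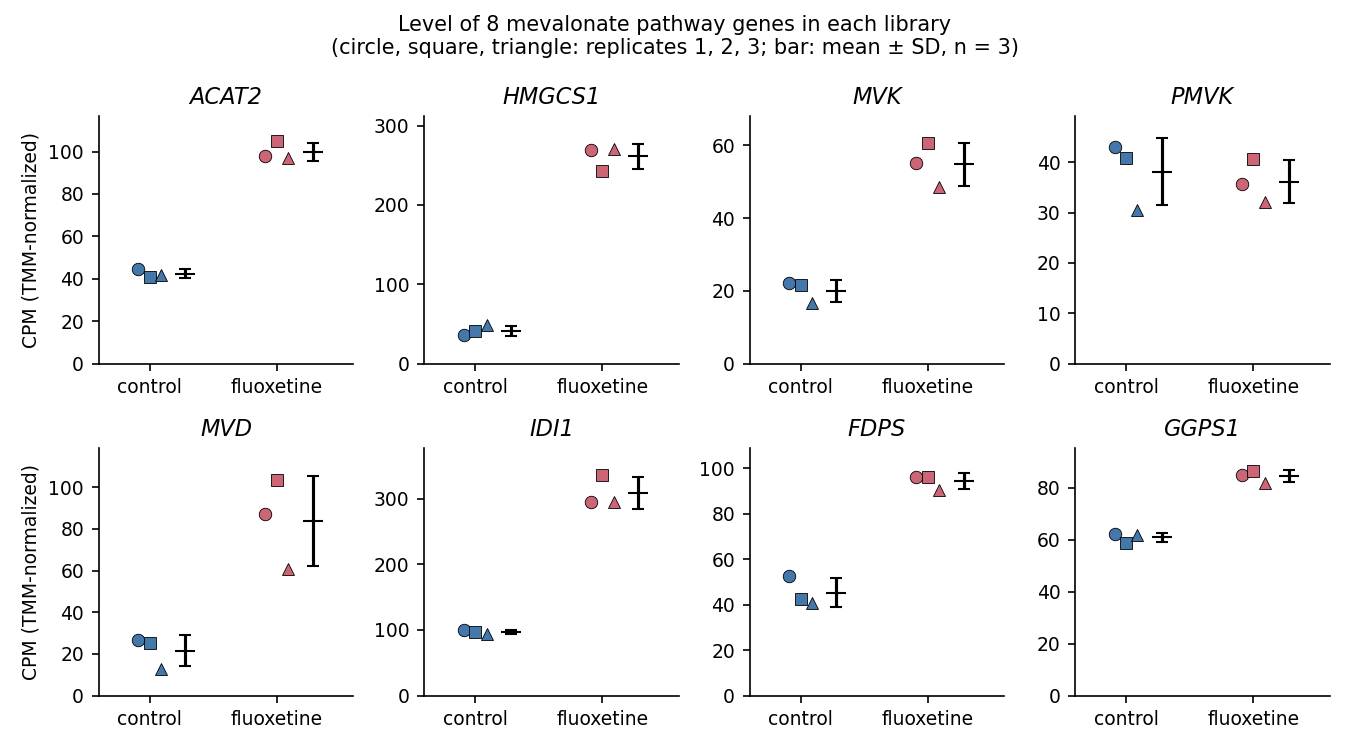
Levels of the 8 genes in CPM after TMM normalization, 1 panel per gene with its own axis from 0, for control and fluoxetine libraries. Circles, squares and triangles are replicates 1, 2 and 3, and bars are the mean ± SD (n = 3). The groups are apart in every panel but that of PMVK, and replicate 3 is the lowest of its group in both groups for MVK, PMVK, MVD, IDI1 and FDPS.

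The first steps of the pathway make HMG-CoA, the precursor of mevalonate. ACAT2 (ENSG00000120437, chr6:159760328-159779055, plus strand) encodes the cytosolic thiolase that joins a pair of acetyl-CoA molecules to acetoacetyl-CoA. It had 985, 783 and 1154 counts in control replicates 1, 2 and 3 and 1616, 1761 and 1661 in the fluoxetine replicates, which are 44.7, 40.8 and 41.6 CPM against 98.1, 104.7 and 96.7 CPM. The spread within each group was small beside the gap between them. The mean went from 42.3 ± 2.05 to 99.9 ± 4.29 CPM (SD, n = 3). The log2 fold change was 1.24 with an SE of 0.08 and an adjusted p of 8.08e-06 by edgeR.

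HMGCS1 (ENSG00000112972, chr5:43289395-43313512, minus strand), the synthase that adds another acetyl-CoA to give HMG-CoA, had the largest response of the 8. It had 785, 788 and 1338 counts in the control libraries and 4442, 4089 and 4640 in the fluoxetine libraries, or 35.6, 41.1 and 48.2 CPM against 269.7, 243.2 and 270.2 CPM. The lowest fluoxetine library was several times above the highest control library, which was replicate 3. Its log2 fold change was 2.65 (95% interval 2.40 to 2.89), a 6.26-fold rise with an adjusted p of 6.59e-07 by edgeR, and it ranked 8 by size among the 1214 genes called higher.

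Mevalonate is then phosphorylated in steps, first by mevalonate kinase. MVK (ENSG00000110921, chr12:109573255-109598117, plus strand) had 486, 413 and 461 counts in the control libraries and 909, 1018 and 836 in the fluoxetine libraries, which are 22.0, 21.5 and 16.6 CPM against 55.2, 60.5 and 48.7 CPM. Replicate 3 was the lowest of each group, and the groups stayed apart. The log2 fold change was 1.45 with an SE of 0.13, a 2.74-fold rise (adjusted p = 7.70e-05, edgeR).

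PMVK (ENSG00000163344, chr1:154924734-154936991, minus strand) encodes phosphomevalonate kinase, which adds the next phosphate, and it was the exception. Its counts were 948, 785 and 849 in the control libraries and 587, 683 and 552 in the fluoxetine libraries. On the scale of CPM these were 43.0, 40.9 and 30.6 against 35.6, 40.6 and 32.1, and the groups overlapped. The log2 fold change was -0.08 (SE 0.14) with an adjusted p of 0.755 by edgeR, and the exact permutation test gave p = 0.7. The 95% interval of its fold change ran from 0.767 to 1.17, so a rise as large as that of the least changed of the other 7 genes (1.39-fold) lay outside it.

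MVD (ENSG00000167508, chr16:88651935-88663161, minus strand), the decarboxylase that turns the doubly phosphorylated mevalonate into isopentenyl diphosphate, responded strongly but was the most variable of the 8. It had 586, 484 and 361 counts in the control libraries and 1435, 1736 and 1040 in the fluoxetine libraries, or 26.6, 25.2 and 13.0 CPM against 87.1, 103.3 and 60.6 CPM. Replicate 3 was far below the others in both groups, yet its fluoxetine value exceeded every control value. The coefficient of variation was 34.6% for control and 25.8% for fluoxetine, and the log2 fold change was 1.96 (95% interval 1.40 to 2.53, adjusted p = 0.00108 by edgeR), a 3.90-fold rise. MVD has the highest GC content of the 8 transcripts (63.7%). Trends with GC content and with the length of the gene's exon union were removed from each library, a correction chosen after seeing the data. The log2 fold change of MVD was then 2.05, and in the uncorrected fit without control replicate 3 it was 1.66.

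**Figure D2:**
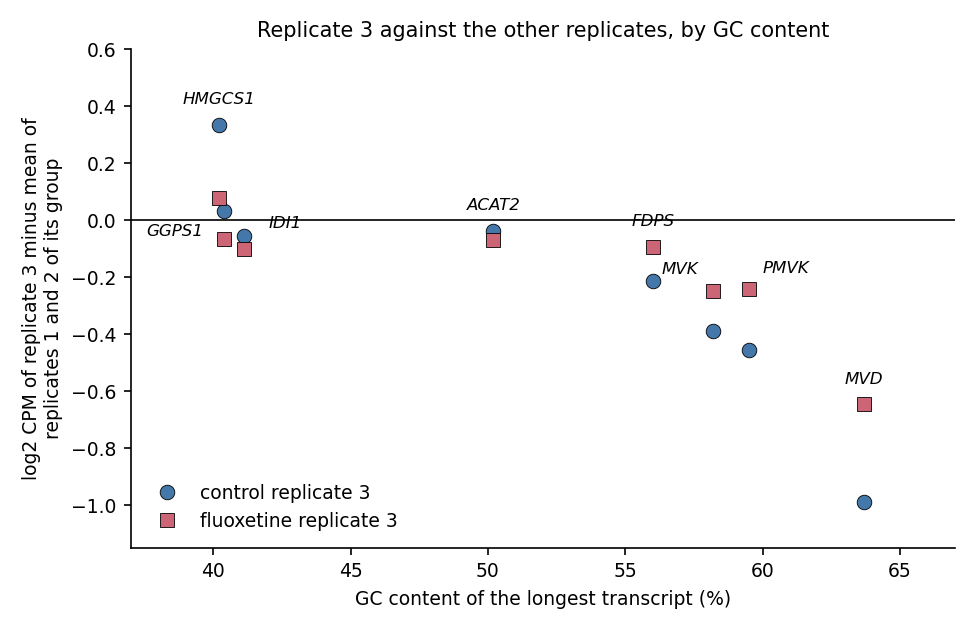
Log2 level of replicate 3 minus the mean of replicates 1 and 2 of its group (vertical axis, log2 CPM) against the GC content of the gene's longest transcript in percent, for control (circles) and fluoxetine (squares). The genes near 40% GC lie at or above -0.10, and MVD, at 63.7% GC, lies at -0.99 (control) and -0.65 (fluoxetine).

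The deviation of replicate 3 was of the same sign in both groups for every gene but GGPS1. HMGCS1, with a GC content of 40.2%, was higher in replicate 3 by 0.33 on the log2 scale among control libraries and by 0.08 among fluoxetine libraries. PMVK, at 59.5% GC, deviated by -0.45 and -0.24, and MVK, at 58.2%, by -0.39 and -0.25. FDPS, at 56.0%, deviated by -0.21 and -0.09, and ACAT2, IDI1 and GGPS1 by no more than 0.10 in size. The plot of these deviations against GC content shows the order. What made the replicates differ was not tested.

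IDI1 (ENSG00000067064, chr10:1039908-1049170, minus strand) encodes the isomerase that converts isopentenyl diphosphate to dimethylallyl diphosphate, so that both building blocks are present. It had 2199, 1857 and 2624 counts in the control libraries and 4866, 5658 and 5054 in the fluoxetine libraries. These are 99.7, 96.7 and 94.5 CPM against 295.4, 336.5 and 294.3 CPM, and fluoxetine replicate 2 was the highest library. IDI1 had the most counts of the 8 genes in every library, and its log2 fold change was 1.67 with an SE of 0.08, a 3.18-fold rise (adjusted p = 1.04e-06, edgeR).

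The last pair of genes encodes prenyl diphosphate synthases, and they responded less. FDPS (ENSG00000160752, chr1:155308748-155320666, plus strand) makes farnesyl diphosphate, the branch point to sterols and to longer isoprenoids. It had 1162, 815 and 1131 counts in the control libraries and 1586, 1617 and 1550 in the fluoxetine libraries, or 52.7, 42.5 and 40.7 CPM against 96.3, 96.2 and 90.3 CPM. The control libraries were spread more widely than the fluoxetine libraries. The log2 fold change was 1.06 (95% interval 0.83 to 1.29, adjusted p = 1.55e-04 by edgeR), just past 2-fold, and it was 0.97 without control replicate 2 and 0.95 without control replicate 3.

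GGPS1 (ENSG00000152904, chr1:235327350-235344532, plus strand) extends farnesyl to geranylgeranyl diphosphate, the source of the lipid anchor of many small GTPases. Its counts were 1366, 1129 and 1713 in the control libraries and 1395, 1452 and 1404 in the fluoxetine libraries, so the raw counts overlapped. Scaled to depth, they were 62.0, 58.8 and 61.7 CPM against 84.7, 86.4 and 81.8 CPM and did not overlap. The rise was 1.39-fold, with a log2 fold change of 0.47, an SE of 0.07 and an adjusted p of 0.00288 by edgeR, the smallest of the 7 rises.

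**Figure D3:**
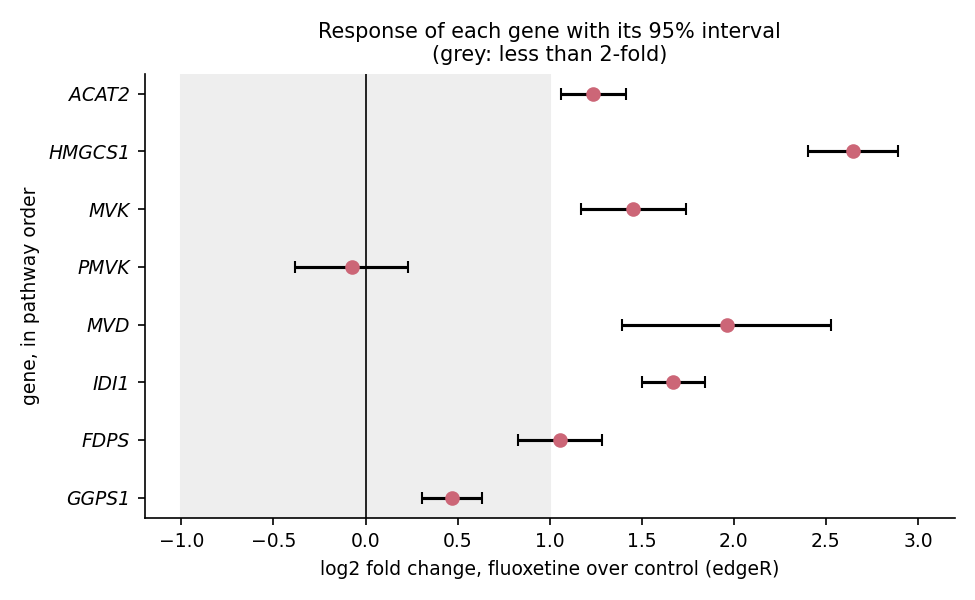
Log2 fold change of fluoxetine over control for the 8 genes in pathway order, with the 95% interval of the edgeR fit (3 libraries per group). Grey marks changes of less than 2-fold. HMGCS1 is farthest right at 2.65, the intervals of ACAT2, HMGCS1, MVK, MVD and IDI1 lie wholly beyond 2-fold, that of FDPS crosses it, GGPS1 lies at 0.47 and the interval of PMVK crosses 0.

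Ratios of counts within a library, which do not depend on the scaling between libraries, showed that the genes did not move by equal factors. The ratio of HMGCS1 to GGPS1 counts was 0.575, 0.698 and 0.781 in the control libraries and 3.18, 2.82 and 3.30 in the fluoxetine libraries, 4.56-fold higher. For IDI1 over GGPS1 it was 1.61, 1.64 and 1.53 against 3.49, 3.90 and 3.60, 2.29-fold higher. The ratio between the 2 prenyl diphosphate synthases, FDPS over GGPS1, was 0.851, 0.722 and 0.660 against 1.14, 1.11 and 1.10, 1.51-fold higher. The ratio of MVK to PMVK, the consecutive kinases, was 0.513, 0.526 and 0.543 against 1.55, 1.49 and 1.51, 2.88-fold higher. The ratios to PMVK of HMGCS1 and MVD were 6.62-fold and 4.16-fold higher. All 6 ratios computed were apart between the groups, each with p = 0.1 in the exact two-sided permutation test. That is the smallest p that 3 against 3 allows. Each ratio set a gene with a larger rise over GGPS1 or PMVK, which had the smallest changes. The separation therefore restates the fold changes above, and no other pairs of genes were computed. The ratios to PMVK were not among those planned.

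Levels of different genes were compared as TPM, per length of the exon union of GENCODE 29. In the control group PMVK had the highest level, 78.5 ± 12.9 TPM (SD, n = 3), followed by IDI1 with 58.8, GGPS1 with 42.1, FDPS with 32.1, ACAT2 with 26.0, HMGCS1 with 23.4, MVD with 12.0 and MVK with 8.15 TPM. The neighbours ACAT2 and HMGCS1 overlapped in this order, as did MVD and MVK. In the fluoxetine group IDI1 led with 191 ± 17.2 TPM and HMGCS1 followed with 149 ± 7.72 TPM, apart from each other and from the rest. PMVK had 75.9, FDPS 68.1, ACAT2 62.4, GGPS1 59.4 and MVD 47.8 TPM, each neighbour overlapping the next, and MVK had 22.7 TPM. The summed level of the 8 genes went from 281 ± 17.4 to 676 ± 46.3 TPM, 2.41-fold higher. Within that sum the share of HMGCS1 went from 8.39% to 22.1% and that of PMVK from 27.8% to 11.2%, whereas ACAT2 held 9.26% and 9.23%. With the length of the longest transcript in place of the exon union, PMVK and IDI1 again led in the control group (63.1 and 61.0 TPM) and IDI1 and HMGCS1 in the fluoxetine group (200 and 162 TPM), but FDPS (102 TPM), MVD (77.7 TPM), ACAT2 (68.5 TPM) and GGPS1 (63.5 TPM) then also stood above PMVK (61.6 TPM) there.

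**Figure D4:**
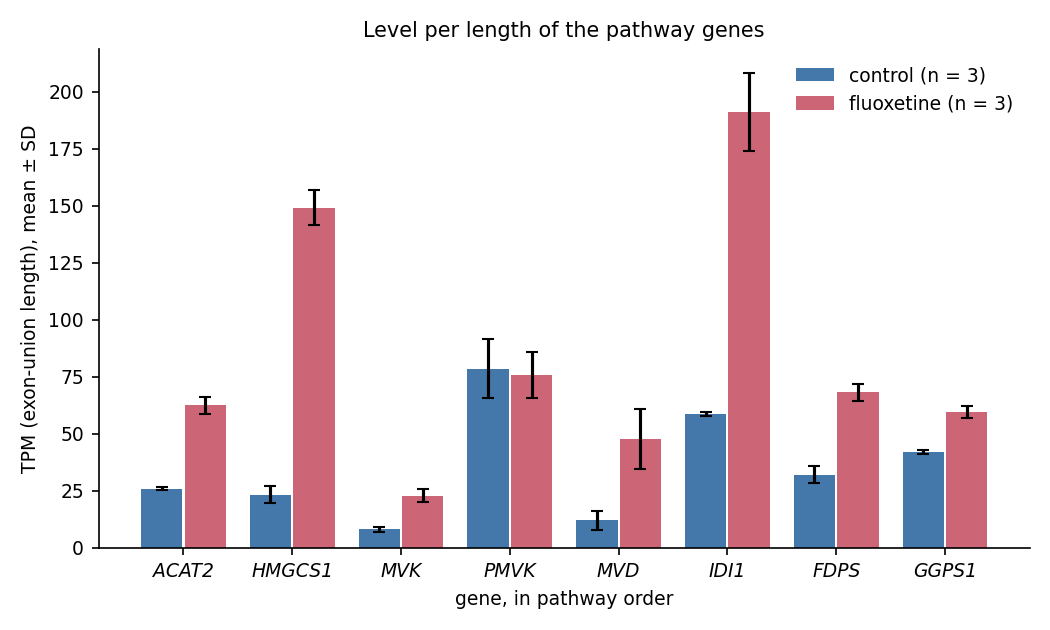
Level per length of the 8 genes in TPM (exon-union length), mean ± SD over 3 libraries per group, in pathway order and with the axis from 0. PMVK is the tallest control bar at 78.5 TPM, and IDI1 (191 TPM) and HMGCS1 (149 TPM) are the tallest fluoxetine bars.

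Several of the genes share exonic bases with a gene on the opposite strand, and whether the counting used the strand is not given in the sources used here, so that reads from those stretches cannot be told apart. MMAB, an adenosyltransferase of vitamin B12 metabolism that overlaps MVK by 306 exonic bases, had 714, 567 and 676 counts in the control libraries and 830, 1011 and 823 in the fluoxetine libraries, a log2 fold change of 0.88 (adjusted p = 0.00187, edgeR). RUSC1-AS1, with 693 exonic bases shared with FDPS, had 147, 137 and 137 against 302, 266 and 277 counts, a log2 fold change of 1.43 (adjusted p = 3.11e-04, edgeR). AC114947.2, at the 3′ end of HMGCS1 with 703 shared exonic bases, had 8, 8 and 13 against 69, 63 and 33 counts, few beside those of HMGCS1. The log2 fold change of AC114947.2 was 2.95 (adjusted p = 7.66e-04, edgeR). TCP1, a chaperonin subunit that shares 397 exonic bases with ACAT2, moved the other way, with a log2 fold change of -0.34 (adjusted p = 0.00986, edgeR). SOD2, the mitochondrial superoxide dismutase, overlaps ACAT2 without a shared exonic base and had a log2 fold change of 0.51 (adjusted p = 7.73e-04, edgeR). ARID4B, with 138 exonic bases shared with GGPS1, was not called (log2 fold change 0.21, adjusted p = 0.230 by edgeR). IDI2-AS1, which shares 643 exonic bases with IDI1 and was named after its values were seen, had 4, 3 and 3 counts in the control libraries and 0 in each fluoxetine library, too few to be tested. The 6 FDPS pseudogenes in the table had 0 to 2 counts in any library.

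The other genes of the pathway were read from 7 lists written by hand, also with earlier results of these data known. Among 7 genes of acetyl-CoA supply, 2 rose and 0 fell, beside 7.76% of all tested genes called higher. ACSS2, which makes acetyl-CoA from acetate, had a log2 fold change of 1.66 (adjusted p = 2.15e-06, edgeR), and ACLY, which makes it from citrate, had 0.87 (adjusted p = 1.76e-04, edgeR). Citrate synthase (CS) was at the low end of this list with -0.12 and ACAT1, the mitochondrial thiolase, had 0.12, neither called. Among the 5 tested paralogs and side enzymes, AACS, which activates acetoacetate, was the only one called, with 0.32 (adjusted p = 0.0401, edgeR), and its call was lost with DESeq2, with RLE normalization, with no filter on low counts and when any 1 library was left out. IDI2, the paralog of IDI1, had 0 to 3 counts in any library and was not tested.

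Most genes of the sterol branch after farnesyl diphosphate rose as well. Of its 13 genes, 11 rose, 9 of them at least 2-fold, and 0 fell (7.76% of all tested genes were called higher and 1.25% at least 2-fold), with a median log2 fold change of 1.22. MSMO1, a sterol C4 demethylation enzyme, had the largest log2 fold change, 2.11, and lanosterol synthase (LSS) had 1.81, HSD17B7 1.75, squalene epoxidase (SQLE) 1.42 and DHCR7 1.35. FDFT1, the squalene synthase that draws on farnesyl diphosphate, rose by 1.19, from 157 ± 4.83 to 360 ± 19.3 CPM (SD, n = 3). The exceptions were LBR, which is also a receptor of the nuclear lamina (0.02), and CYP51A1, which was counted at only 1.10 CPM in the control group (0.84, adjusted p = 0.0846 by edgeR). FDFT1 and CYP51A1 were named after their values were seen.

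Other uses of farnesyl and geranylgeranyl diphosphate were read beside the 13.1% of all tested genes called in either direction. Of 13 genes of prenyl transfer and of the processing of prenylated proteins, 2 rose and 1 fell, with a median log2 fold change of 0.01. PCYOX1, a lysosomal oxidase of prenylcysteine, had 0.43 (adjusted p = 0.0135), the Rab escort protein CHM had 0.41 (adjusted p = 0.0480) and ICMT, the methyltransferase of prenylated cysteines, had -0.31 (adjusted p = 0.0141), all by edgeR. Of 11 genes of the dolichol, ubiquinone, vitamin K2 and tRNA branches, 0 rose and 1 fell, with a median of -0.23. The fall was that of DOLPP1, a dolichyl pyrophosphate phosphatase (-0.43, adjusted p = 0.0321 by edgeR), and DOLK, the dolichol kinase, was at the upper end with 0.24, not called. Without fluoxetine replicate 1 neither list had a called gene.

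Of 17 prenylated proteins, small GTPases and lamins, 2 rose and 3 fell, beside 13.1% of all tested genes called in either direction. RAB7A, a GTPase of late endosomes, had a log2 fold change of 0.44 (adjusted p = 0.00497) and NRAS 0.34 (adjusted p = 0.0328), and LMNB2, LMNB1 and RHOC had -0.53, -0.41 and -0.39 (adjusted p = 0.0267, 0.00477 and 0.0205), all by edgeR. Their median was -0.03, and without control replicate 2 or either of fluoxetine replicates 1 and 3 only 2 of the 17 were called.

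Among 9 genes of SREBP activation and its feedback, 2 rose and 0 fell, again beside 7.76% called higher over all tested genes. INSIG1, the sterol-dependent anchor of SCAP and itself a target of SREBP, went from 39.0 ± 1.68 to 206 ± 11.4 CPM (SD, n = 3), and its log2 fold change was 2.40 (adjusted p = 2.16e-07, edgeR). SREBF2, which encodes SREBP2, rose by 0.77 (adjusted p = 3.39e-04, edgeR), and SREBF1 had 0.36 with an adjusted p of 0.159 (edgeR). ERLIN1 was at the low end with -0.14, not called. No activity of SREBP2 was measured.

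**Figure D5:**
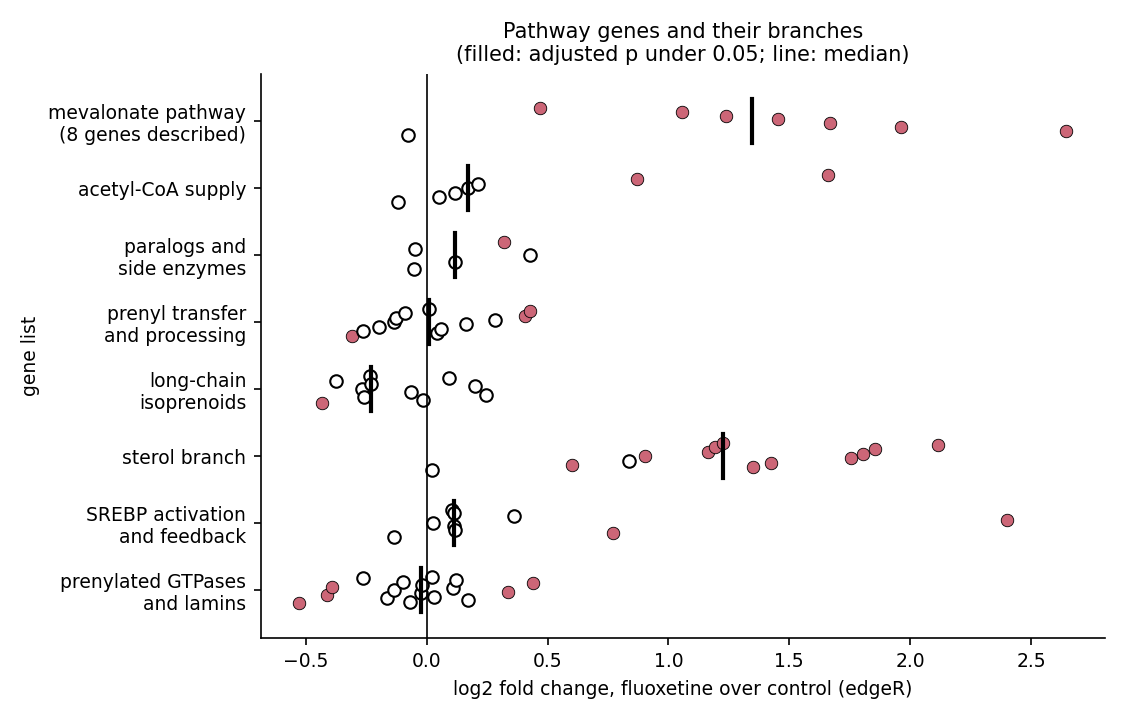
Log2 fold changes (edgeR, fluoxetine over control) of the 8 genes and of 7 lists of neighbouring pathway genes. Each point is a gene, filled where the adjusted p was under 0.05, and the vertical line is the list's median. The 8 genes (median 1.35) and the sterol branch (1.22) lie to the right, and the medians of the other lists lie between -0.23 and 0.17.

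The genes whose levels most resembled the mean standardised log2 CPM of the 8 genes across the 6 libraries were CYSTM1 (Pearson's r = 0.998), WBP2 (0.996), DVL2 (0.996), MMAB (0.995), UAP1L1 (0.995) and HMOX1, heme oxygenase (0.994). An r above 0.95 was seen for 363 of 15638 other tested genes (2.32%). These values are descriptions, because the 6 libraries form only 2 groups and any gene that differs between them correlates.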

How the data were processed

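Total RNA of 3 control and 3 fluoxetine libraries (TRIzol extraction, paired-end reads of 150 bases) was grouped by the sample labels. The authors deposited raw read counts per gene without normalization. The deposited p-value, adjusted p-value and log2 fold change of their own comparison were not used. The submitters' processing notes name fastp 0.20.0, HISAT2 2.1.0, HTSeq 0.10.0 and DESeq2 1.18.1, and the strand setting is not given in the sources used here. The annotation matched GENCODE release 29 (GRCh38), which holds 31635 of the 31762 genes, 96.81% of them with the same start and end.

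The test was that of edgeR 4.0.16 under R 4.3.3 (TMM, filterByExpr, glmQLFit, glmQLFTest, 15646 genes). CPM used TMM factors of 0.985 to 1.02. TPM used exon-union lengths. A gene was called at an adjusted p under 0.05. At a depth of 16157507 counts or more, 3 counts were worth at most 0.186 CPM. The code was tested on simulated data. Libraries of a group differed beyond sampling noise (chi-square per degree of freedom 3.72 to 24.2), so all 6 were kept.

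Alternatives were DESeq2 1.42.0, limma-voom (limma 3.58.1), RLE, library size only, no filter, at least 10 counts in every library, each library thinned to the smallest total, a replicate block and leaving out each library. Removing GC and length trends, and longest-transcript TPM, were added after seeing the data, and the ratios to PMVK were not planned. The members and lists were chosen with earlier results of these data known. All members were named, with the smallest p-values and both ends of each list, overlapping genes, and the 6 genes most alike. Some genes are not reported here.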

Additional observations from a re-analysis of the deposited data

How the results depend on the processing

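In all 16 alternatives the 7 genes stayed called and higher, and PMVK stayed uncalled. The count of members raised at least 2-fold was 5 or 6, depending on FDPS alone. PMVK's log2 fold change turned to 0.06 (0.0618) after GC and length trends were removed and to 0.06 (0.0615) with the replicate block added, and leaving out 1 library gave -0.25 to -0.01. GGPS1 had its highest adjusted p of 0.0411 without fluoxetine replicate 1 (edgeR). Over all tested genes, 4018 were called with the replicate block in place of 2047, 3284 after GC and length trends were removed and 3224 with both. Leaving out 1 library gave 572 called genes (without fluoxetine replicate 1) to 3633 (without control replicate 3). It gave 1191 and 919 without control replicates 1 and 2 and 935 without fluoxetine replicate 3. The causes were not tested. With no filter on low counts, 1393 genes were called higher and 1516 lower, in place of 1214 and 833. The replicate numbers were not read as pairs, since same-numbered libraries deviated together with correlations of 0.03, 0.12 and 0.39, and control replicate 1 correlated best with fluoxetine replicate 2 (0.32). The replicate block changed no call of the 8 genes. Counts were low for CYP51A1, TM7SF2 and IDI2, not for the 8 genes, and the cause of these low counts was not tested.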
